A study of Mus musculus with 2 samples.

Results

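Genes that carry many Mettl3-dependent sites were described from native RNA of mouse embryonic stem cells. Poly(A) RNA of wild-type (WT) cells of the 129 strain and of Mettl3 knockout (Mettl3 KO) cells was read directly by nanopore direct RNA sequencing (DRS), with 1 library per condition. The Mettl3 KO cells lacked intact Mettl3 on either allele through genome editing, carried drug resistance markers at the locus and were derived from colonies. The members were chosen by the number of positions in 3 lists that compare WT with KO, those of Nanocompore, DiffErr and DRUMMER. Their union held 3166 positions (unique chromosome, start and strand on GRCm38), named comparison positions here, and all 3166 lay in an exon of at least 1 gene on the same strand. These exons belonged to 1587 genes, of which 198 held 4 or more positions, a share of 12.5%. All 198 were protein-coding genes, and they held 1096 of the positions (34.6%). The remaining 1389 genes held 1 to 3 positions each and 2070 positions in all.

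A list line gives a position, a strand and a transcript or gene, with no score, methylation rate or read number, so the depth behind a position is unknown. With 1 library per condition no test between conditions was possible, and all intervals and tests below describe positions in these lists. Positions of 1 gene share reads, so p-values over positions are too small as statements about genes. Mettl3 itself held no comparison position, and it held 13 positions listed in WT and 5 listed in KO by any tool. All 10 markers of embryonic stem cells that were looked up held positions listed in WT, from 6 to 50 each. In KO the same 10 held 6 to 38. Of 8 genes of differentiated cells 2 held any in WT, Sox17 with 12 and Nes with 3, and none did in KO. Of 5 genes of feeder fibroblasts, Vim held 9 positions in WT and 2 in KO, Thy1 held 3 and 1, Col1a1 held 0 and 3, and Col1a2 and Col3a1 held none in either. These marker lists thus differed between the libraries, and their part in the results was not tested.

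The m6A mark is placed on nascent mRNA by a complex whose catalytic subunit is Mettl3 and whose partner Mettl14 helps to hold the RNA. The complex favours the 5-mer RRACH (R is A or G, H is A, C or T), in which the A of AC is methylated. In mammalian mRNA the mark is known to gather around the stop codon and in long exons, and short internal exons carry little of it. Reader proteins of the YTH family bind the mark and shorten the life of many transcripts, among them those of pluripotency factors in embryonic stem cells.

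The sites below are shown because they are the positions that all 3 comparison tools listed in the genes with most positions, together with the 4 closest neighbours of any member. Each line holds 21 bases of GRCm38 read 5′ to 3′ on the strand of the gene with the RRACH 5-mer in capitals, and each window lies within 1 exon. Msh6 (plus strand), which encodes a DNA mismatch repair protein, had 8 such positions, and all 8 lay in the coding part of exon 4, from 947 to 3148 nt upstream of the stop codon:
Msh6 chr17:87984735-87984755: ctcagggtGGACTtagaagga
Msh6 chr17:87984888-87984908: acagtagtGGACCcactgttt
Msh6 chr17:87985450-87985470: ggaggaagAGACTtctggtca
Msh6 chr17:87985490-87985510: tgctttgtGGACActtcactg
Msh6 chr17:87986068-87986088: tactgaagGGACCctgctaga
Msh6 chr17:87986574-87986594: ggaagaccGGACTcatcactc
Msh6 chr17:87986891-87986911: tccttaaaGGACTgcatgcgg
Msh6 chr17:87986936-87986956: aaccacaaGGACTggcagtct

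In Epop (minus strand), which encodes a protein that links Elongin BC to Polycomb repressive complex 2, 7 positions were listed by all 3 tools, 3 of them coding and 4 in the 3′ UTR, the farthest 353 nt after the start of the stop codon:
Epop chr11:97628829-97628849: cgtcctcaGGACTctccgacc
Epop chr11:97628505-97628525: ttcgccctGGACActccaagt
Epop chr11:97628222-97628242: agatgggaGGACCcgctgtcc
Epop chr11:97627955-97627975: agatccaaGGACTggcgtccg
Epop chr11:97627836-97627856: aaagaaagGGACAgagggacg
Epop chr11:97627824-97627844: agagggacGGACCttggtgat
Epop chr11:97627811-97627831: ttggtgatGGACAaaccggtt

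In Eef1a1 (minus strand), the elongation factor that brings aminoacyl-tRNA to the ribosome, 3 of the 23 positions were listed by all 3 tools, in exons 3 and 8:
Eef1a1 chr9:78480265-78480285: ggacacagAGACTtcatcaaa
Eef1a1 chr9:78478788-78478808: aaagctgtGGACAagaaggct
Eef1a1 chr9:78478568-78478588: aatgttgtGGACCattttttt

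The closest 4 neighbours lay in the 3′ UTR of Klf2 (plus strand), a Kruppel-like transcription factor of naive pluripotency, 73 to 100 nt after the start of the stop codon. Their windows overlap:
Klf2 chr8:72320980-72321000: ccccttgcAAACAgactgcta
Klf2 chr8:72320984-72321004: ttgcaaacAGACTgctattta
Klf2 chr8:72320999-72321019: tatttattGGACCttaggaca
Klf2 chr8:72321007-72321027: ggaccttaGGACAgagccgga

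Of these 22 windows, 6 held GGACT, 4 of them in Msh6. Only the first of the Klf2 windows held a 5-mer without a G before the AC, AAACA. In the KO library, tools that call each library by itself also listed every Epop, Eef1a1 and Klf2 position shown. Of the Msh6 positions shown, they left out only those in the windows that start at 87984735, 87985490 and 87986068.

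Most members were close to the threshold. There were 86 genes with 4 positions and 45 with 5, while 15 genes held 10 or more, and the median was 5. Just inside the threshold were genes such as Tuba4a and Ncl with 4 positions each, and just outside it were Rrs1, Gm28551 and Asnsd1 with 3 each. Eef1a1 held the most positions, 23, followed by Msh6 with 22, Epop with 15, and Eef2, which moves the ribosome along the mRNA, with 14. Pkm, a pyruvate kinase of glycolysis, and mt-Co1, a subunit of cytochrome c oxidase made from the mitochondrial genome, held 13 each. Slc2a1, a glucose transporter, held 11. Those with 10 were Hs6st1 (heparan sulfate sulfation), Mcl1 (a survival protein of the Bcl2 family), Ftl1 (ferritin light chain), Klf2, Aars (alanyl-tRNA synthetase), Usp10 (a deubiquitinase), Hsp90aa1 (a cytosolic chaperone) and Rpl3 (a ribosomal protein). Some members share exons: all 10 positions of Aars lie in the last exon of a long Aars transcript, and 8 of them are also the 8 positions of Exosc6, a member whose single exon overlaps it, and the 6 positions of Ube2v1 are the 6 positions of the overlapping gene Gm20431. Genes such as Eef1a1, Gapdh and those of ribosomal proteins have near-identical copies elsewhere in the genome, so reads of a copy could have been placed on them.

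**Figure D1:**
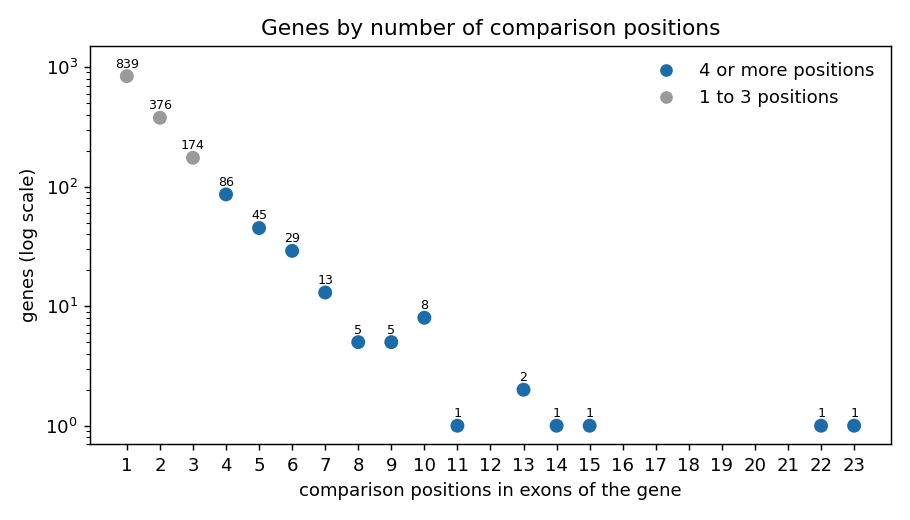
Number of genes (y axis, log scale) by the number of comparison positions in their exons (x axis), with genes of 4 or more positions in blue and genes of 1 to 3 in grey. The counts fall from 839 genes with 1 position to 86 with 4, and single genes stand at 22 and 23.

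The 3 lists contributed unequally. Nanocompore, which compares current signals, listed 806 of the members' positions, DiffErr listed 632 and DRUMMER, which like DiffErr compares base errors, listed 441. Nanocompore alone listed 420 (38.3%), while at least 1 error-based tool listed 676 (61.7%) and all 3 tools listed 227 (20.7%). In genes with 1 to 3 positions these shares were 40.8%, 59.2% and 14.1%. By gene, 77 members kept 4 or more positions without those of Nanocompore alone, 115 had 1 to 3 positions from an error-based tool, and 6 rested on Nanocompore alone, namely Bhlhe40, Gna13, Eno1, Tdrp, Grn and Rcor2. These counts follow from the rule and are given as a description.

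The members were read against 10 gene lists, chosen with earlier results of these data known. For scale, 9803 genes held a position listed in WT, and 198 of them, 2.02%, were members. Glycolysis and mitochondrial respiration had 8 members among its 23 genes with a WT position (34.8%), ribosomal proteins and translation factors 9 of 28 (32.1%), and chaperones and heat shock proteins 5 of 18 (27.8%). Pluripotency factors had 5 of 27 (18.5%), and cytoskeleton, adhesion and membrane had 4 of 29 (13.8%). Wnt, TGF-beta and LIF signalling had 2 of 29 (6.90%). The lists with 1 member each were m6A writers, readers and erasers (1 of 20), RNA-binding and splicing factors (1 of 37, 2.70%) and chromatin regulators (1 of 42, 2.38%). Myc and cell-cycle regulators had 0 of 22, and 7 of its genes held 1 to 3 positions. The lists differ in how abundant their transcripts are in cells, and no read number is given with the positions, so the part of abundance in these shares was not tested.

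Among the translation genes, Eef1a1 stood out by density: 23 of its 24 RRACH positions (95.8%) were comparison positions. In Eef2 14 of 45 RRACH positions were (31.1%), in Rpl3 10 of 18 (55.6%), in Rps21 5 of 6 (83.3%), in Rpl13 5 of 8 (62.5%) and in Rps24 5 of 32 (15.6%). Rpl4 held 9 positions, Rps2 held 6, and Rps3 and Rps6 held 5 each. The share was also high in mt-Co1, with 13 of 16 (81.2%), in H2afx, a histone variant of the DNA damage response, with 7 of 9 (77.8%), and in Ftl1 with 10 of 15 (66.7%). Over the 198 members the median share was 16.7%, and the lowest was 3.01%, in Ncl, which encodes nucleolin. Ncl was described on a transcript of 8202 nt. Among transcripts with equally many positions a coding and then the longest one was taken, so these shares depend on that choice. Whether the transcript taken is the one expressed was not tested.

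The glycolytic members were Hk2, which phosphorylates glucose (4 positions), Tpi1 (4), Gapdh (6), Pgam1 (6), Eno1 (4), Pkm (13) and Ldha, which makes lactate (5), and the respiratory one was Atp5b of the ATP synthase (5). In Hk2 all 4 positions lay in the 3′ UTR and in Eno1 all 4 were coding. Of the chaperones, Hsp90aa1 held 10 positions, of which 9 were coding, Hspa8 (Hsc70) held 9, Hsp90ab1 held 7, all coding, Hspd1 of the mitochondrial chaperonin held 5, and Dnajb1, a co-chaperone of Hsp70, held 4. The chaperone genes carried most of these positions in the coding sequence, except Hspd1, where 3 of 5 lay in the 3′ UTR.

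The pluripotency members were Klf2 (10 positions), Fgf4, a growth factor secreted by embryonic stem cells (6), Zfp42, also known as Rex1 (5), and Klf4 and Sox2, which are reprogramming factors (4 each). All 6 positions of Fgf4 lay in the 3′ UTR. In Sox2, a gene of 1 exon, the positions lay at 137 nt before and at 10, 222 and 237 nt after the start of the stop codon, and all 4 were listed by 4 or more of the 6 single-mode tools in WT. Pou5f1 and Nanog, the other core factors, held 2 positions each and so fell under the threshold. The signalling members were Nodal, a TGF-beta ligand (9 positions, 7 of them coding), and Ctnnb1, beta-catenin (4). Slc2a3, a glucose transporter, held 8 positions, and Actg1, cytoplasmic actin, held 7. Among m6A factors the only member was Ythdf1, a reader, with 5 coding positions in exon 4 of 1521 nt. Kdm5b, a histone demethylase, held 5 positions and Hnrnpf, a splicing factor, held 6.

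The members' positions were spread farther from the stop codon than positions of genes with fewer. Of 1092 member positions on a coding transcript, 389 lay at most 200 nt from where the stop codon starts, 35.6% (95% Wilson interval 32.8% to 38.5%). The share in genes with 1 to 3 positions was 57.3% (1172 of 2047, 55.1% to 59.4%), and over all comparison positions it was 49.7%. The difference of -21.6 percentage points passed the two-sided Fisher exact test (adjusted p = 2.63e-30, Benjamini-Hochberg over 6 tests). All RRACH positions of the member transcripts lay in this window in 17.0% of cases. The window of a member transcript held a median of 7 RRACH positions and at most 12, which bounds how many positions of 1 gene can lie there. With each gene given equal weight, the mean shares were 38.4% and 59.7%. Coding positions made up 49.4% of the member positions (541 of 1096, 46.4% to 52.3%), against 30.1% in the other genes (28.2% to 32.1%), and the 3′ UTR held 48.9% against 68.1%.

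**Figure D2:**
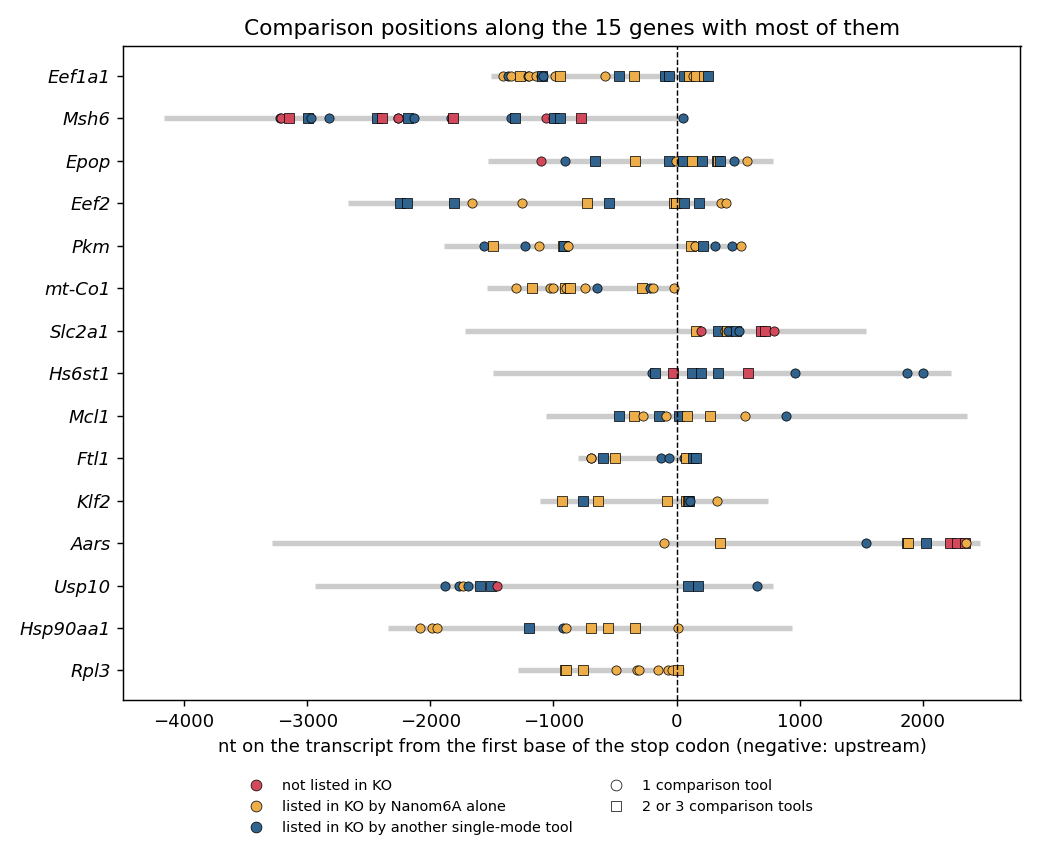
Comparison positions along the transcripts (grey bars) of the 15 genes with most of them, in nt from where the stop codon starts (dashed line, x axis). Squares were listed by 2 or 3 comparison tools and circles by 1, and the colour gives the KO listing. Positions of Msh6 lie upstream of the stop codon except for 1, all 11 of Slc2a1 lie downstream, and those of Eef1a1 and Eef2 run along the whole transcript.

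Single genes took different forms. In Msh6 20 of 22 positions lay in exon 4, an internal exon of 2536 nt, and only 1 lay within 200 nt of the stop codon. In Slc2a1 all 11 lay in the last exon of 1738 nt, all in the 3′ UTR, and spanned 628 nt. In Eef1a1 the 23 positions spanned 1667 nt of the 1794 nt transcript, and exon 8, the last, held 8 of them. In Usp10 7 of 10 lay in exon 4 of 1029 nt, and in Nodal 5 of 9 lay in exon 2 of 716 nt. In all, 12 members held 4 or more positions in 1 internal exon of 400 nt or longer, namely Msh6, Usp10, Hspa8, Nodal, Phax, Cand1, Ahctf1, Fbxo5, Cdca5, Degs1, Ythdf1 and Tex10. In 42 members every position lay in the 3′ UTR and in 26 every position was coding. In 9 members every position lay within 200 nt of the stop codon, among them Lsm10, a component of the U7 snRNP, and Rps15a, while in 23 members with an annotated stop codon none did, H2afx, Fgf4 and Hsp90ab1 among them.

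The exons that held the member positions had a median length of 1012 nt, against 1018 nt in the other genes and 1012 nt over all RRACH positions of the member transcripts. Of the member positions 82.3% (79.9% to 84.4%) lay in an exon of 400 nt or longer, against 84.9% (83.3% to 86.4%) and 84.0% over all comparison positions. This difference of -2.63 points did not pass the Fisher exact test (adjusted p = 0.0592). Its call changed with several settings, among them the length limit: with a limit of 200 nt the difference passed the test, and with 1000 nt the values were 50.5% and 50.4%. Of the RRACH positions of the member transcripts 67.2% lay in exons of 400 nt or longer. In 177 of 198 members the exon with most positions was that long, and in 118 members every position lay in 1 exon.

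The last exon, or the single exon of a transcript without junctions, held 73.2% of the member positions (802 of 1096, 70.5% to 75.7%) and 87.4% of the others (1810 of 2070, 85.9% to 88.8%), with 82.5% over all comparison positions and 59.2% of the RRACH positions. The difference of -14.3 points passed the Fisher exact test (adjusted p = 3.39e-22). Internal exons held 24.2% of the member positions (265, 21.7% to 26.8%) and 227 of the 2070 others (9.69% to 12.4%). Transcripts of a single exon held 102 member positions, 9.31%, and 17 members were described on one, among them Epop, Sox2, H2afx, Jund and 3 mitochondrial genes. Where the transcript had junctions, 22.1% of the member positions (220 of 994, 19.7% to 24.8%) lay within 100 nt of one, against 12.8% in the other genes and 37.0% of RRACH positions. The share was 26.9% (22.7% to 31.5%) for member positions of Nanocompore alone and 19.1% (16.2% to 22.4%) for those of an error-based tool.

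**Figure D3:**
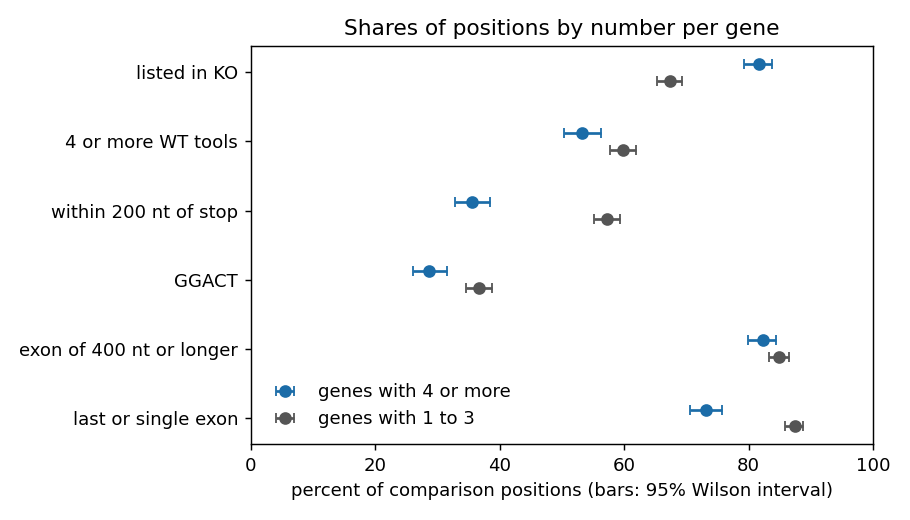
Percent of comparison positions (x axis) with each of 6 properties, in genes with 4 or more positions (blue) and in genes with 1 to 3 (grey), with 95% Wilson intervals as bars. The widest gap is at the stop codon, 35.6% against 57.3%, and the intervals overlap only for exons of 400 nt or longer.

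Neighbouring positions of a member lay a median of 115 nt apart on the transcript (quartiles 46.0 and 237 nt, 911 neighbouring pairs). Neighbouring RRACH positions of the same transcripts were a median of 45 nt apart (20.0 and 88.0 nt, 7365 pairs). The comparison positions are a subset of the RRACH positions, so wider gaps follow from their smaller number, and the contrast says nothing about how they are arranged. Of the pairs of comparison positions 4.61% (42) were within 10 nt, 45.7% within 100 nt and 91.1% within 500 nt, and the corresponding shares of RRACH pairs were 11.6%, 79.3% and 99.9%. Positions that lie close to each other can be read from the same stretch of signal, since the pore holds several bases at once. In 7 members 4 positions lay within 100 nt, namely Klf2 (27 nt), H2afx (52), Eef1a1 (58), Eef2 (79), Slc2a1 (83), mt-Co2 (97) and Ftl1 (99). The closest 4 positions of Epop spanned 107 nt and those of Msh6 115 nt, with median spacings of 90.5 and 61 nt over all their positions. At the other end were Hk2, whose 4 positions spanned 1903 nt, and Klf4, with 1156 nt. Members whose positions came from an error-based tool in at least 4 cases had a median spacing of 108 nt, those with 1 to 3 such positions 122 nt, and the 6 on Nanocompore alone 94 nt.

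**Figure D4:**
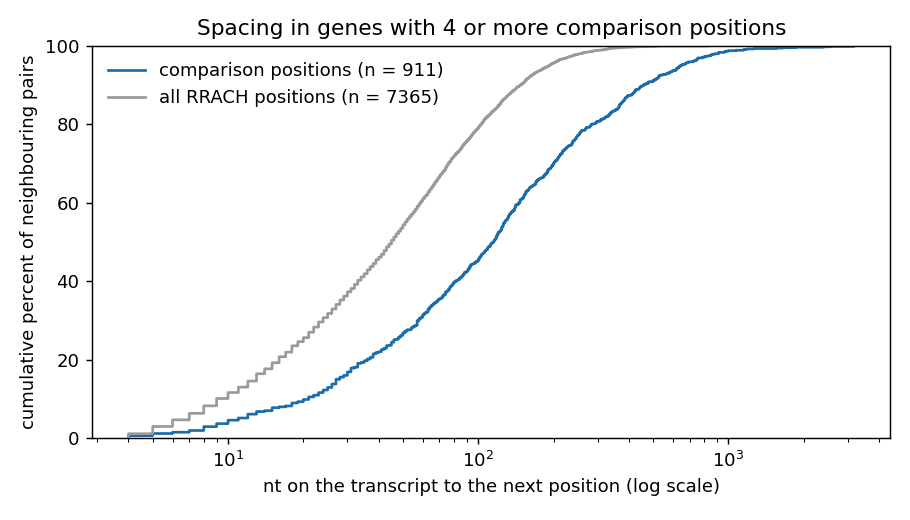
Cumulative percent of neighbouring pairs (y axis) by their distance on the transcript in nt (x axis, log scale), for comparison positions of the 198 genes (blue) and for all RRACH positions of their transcripts (grey). The blue curve lies to the right of the grey one, with medians of 115 and 45 nt, as it must for a subset of the same positions.

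GGACT was the most frequent 5-mer among the members' positions, but less so than in the other genes. It was found at 315 of 1096 positions, 28.7% (26.1% to 31.5%), against 759 of 2070, 36.7% (34.6% to 38.8%), 33.9% of all comparison positions and 9.20% of the RRACH positions of member transcripts. The difference of -7.93 points passed the Fisher exact test (adjusted p = 1.02e-05). The member transcripts held 696 GGACT in all, which bounds how many positions of 1 gene can have it. The rule that chose the members can thus lower this share by itself, and its part was not tested. GGACA had 20.1%, AGACT 14.0% and GGACC 13.8% of the member positions, against 19.3%, 22.1% and 9.23% in the other genes. All 5-mers but GGACT and AGACT had a higher share in the members than in the other genes, without a test. Among those with A before the AC, AAACT had 3.83% against 1.16% and GAACC 2.28% against 0.483%, but GAACA only 1.46% against 1.21%. With G there, AGACC had 3.56% against 1.79%. The 4 5-mers frequent in the members, GGACT and the 3 just named beside it, made up 59.8% (55.0% to 64.3%) of the member positions that Nanocompore alone listed, 87.0% (84.2% to 89.3%) of those with an error-based tool, and 97.4% (94.4% to 98.8%) of those with all 3. In genes with 1 to 3 positions these shares were 79.7% (76.9% to 82.3%), 92.5% (90.9% to 93.8%) and 94.2% (90.9% to 96.3%). Eef1a1 had 0 GGACT and 9 of these 4 5-mers among 23 positions, and mt-Co1 had 0 and 2 among 13, whereas Msh6 had 4 and 15 among 22, Epop 2 and 13 among 15, and Usp10 4 and 10 among 10.

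The label Mettl3-dependent was set against the lists of the KO library itself. The 6 single-mode tools, which call sites in each library by itself, were Nanom6A, Tombo, m6Anet, MINES, Epinano and ELIGOS. At least 1 of them listed 894 of the 1096 member positions in KO, 81.6% (79.2% to 83.8%), against 1393 of 2070 in the other genes, 67.3% (65.2% to 69.3%), and 72.2% of all comparison positions. The single-mode lists and the comparison lists come from the same reads, so these shares are a description and are no independent check of the members. A listing in KO gives no level, so a position can be listed in both libraries at different rates. The paper reported almost no m6A in the KO mRNA by mass spectrometry. It reads the many single-mode calls in KO as a sign of false positives, with Tombo and Nanom6A among its examples. A KO listing by itself therefore does not show that a position is methylated in KO. The positions are therefore called comparison positions here, and Mettl3 dependence is only what the comparison tools called.

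The KO listings of the members came mostly from Nanom6A. Its KO list held 716 member positions, 65.3% (62.5% to 68.1%), against 39.6% (37.5% to 41.7%) in the other genes, while in WT it held 91.6% and 88.5%. Tombo followed in KO with 36.9% against 37.4%, then m6Anet with 18.7% against 19.2%, MINES with 5.66% against 5.94%, Epinano with 3.56% against 4.01% and ELIGOS with 0.547% against 0.386%. Nanom6A was the only single-mode tool to list 351 member positions in KO (32.0%, 29.3% to 34.8%) and 369 others (17.8%, 16.2% to 19.5%). Without Nanom6A, the share listed in KO was 49.5% in both groups. In WT, Tombo held 69.1% of the member positions against 80.2% in the other genes, m6Anet 75.9% against 82.9%, Epinano 52.0% against 60.5%, ELIGOS 46.0% against 48.6% and MINES 18.1% against 21.4%. At the positions of Msh6 and Hs6st1 Nanom6A listed none in either library.

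**Figure D5:**
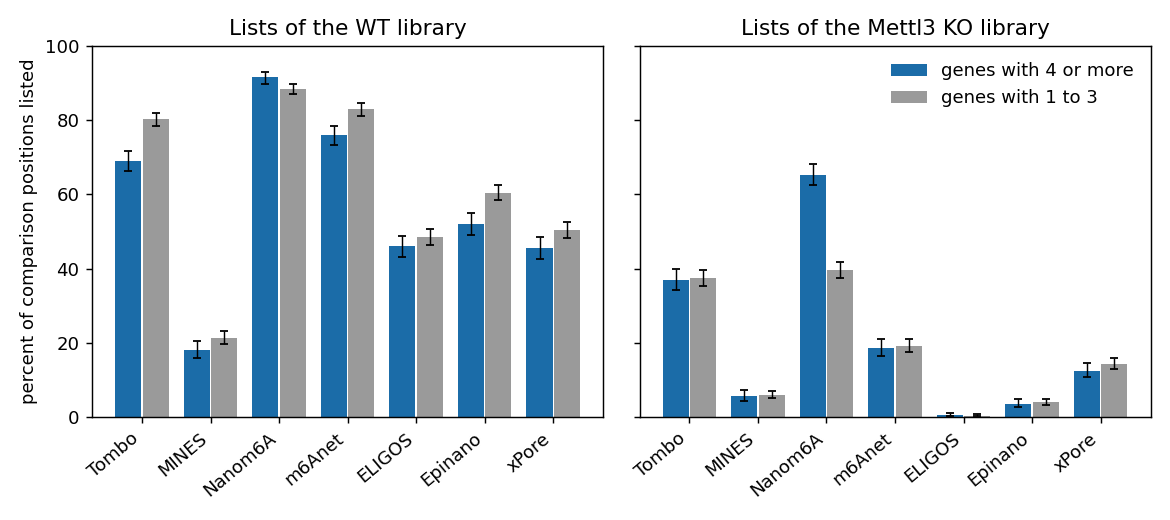
Percent of comparison positions (y axis) in the list of each tool (x axis) from the WT library (left) and the Mettl3 KO library (right), in genes with 4 or more positions (blue) and with 1 to 3 (grey), with 95% Wilson intervals as bars. In KO the groups stand apart at Nanom6A, 65.3% against 39.6%.

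By gene, 95 of the 198 members had every position listed in KO (48.0%, 41.1% to 54.9%) and 2 had none. Of the 1389 genes with 1 to 3 positions 811 had every position listed (58.4%, 55.8% to 61.0%), though with fewer positions to be listed in each. Eef1a1 had 23 of 23 listed in WT and 23 of 23 in KO, Eef2 14 and 14 of 14, Pkm 13 and 13 of 13, and mt-Co1 13 and 13 of 13. In each of these genes every RRACH position of the transcript was listed in both libraries (24, 45, 36 and 16 positions). These listings thus do not set their comparison positions apart. Epop had 15 of 15 listed in WT and 14 in KO. Msh6 had 21 of 22 listed in WT and 13 in KO, and so 9 not listed in KO. Of all RRACH positions of the transcript, 29 of 32 were listed in KO in Epop and 27 of 65 in Msh6. The members without a KO listing were Gna13, a G protein alpha subunit with 5 positions, all in its last exon of 5456 nt and all from Nanocompore alone, and Lsm10 with 4. Members with 4 or more positions not listed in KO numbered 9, namely Msh6, Slc2a1, Nodal, Fignl1, Zswim1, Gapdh, Stk38, Gna13 and Lsm10. The 95 members with every position listed had shorter transcripts than the other 103 (median 1837 against 2597 nt) and a higher share of their RRACH positions were comparison positions (median 19.2% against 12.9%). They included 13 of the 14 genes of ribosomal proteins among the members. The same 95 had the 4 frequent 5-mers at 67.9% of positions (63.8% to 71.7%), against 84.9% (81.7% to 87.7%) in the 103, and a median of 85.7% of all RRACH positions of their transcripts were listed in KO, against 53.3%.

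Fewer of the members' positions had wide support in WT. At least 4 of the 6 single-mode tools listed 584 of the 1096 positions in WT, 53.3% (50.3% to 56.2%), against 1238 of 2070, 59.8% (57.7% to 61.9%), and 57.5% of all comparison positions. With each gene given equal weight, the mean shares were 56.6% and 60.0%, a difference of -3.36 points in place of -6.52. All 6 tools listed 104 member positions, and 6 member positions were listed by none of them. Among positions of Nanocompore alone the share was 31.0% (26.7% to 35.5%) in members and 40.9% (37.6% to 44.2%) in the other genes, and among those of an error-based tool it was 67.2% (63.5% to 70.6%) and 72.8% (70.3% to 75.3%). Usp10 had 10 of 10 positions at this level, Aars 9 of 10, Epop 11 of 15 and Mcl1 7 of 10. Eef1a1 had 1 of 23, Pkm 1 of 13 and mt-Co1, Rpl3, Hspa8 and Gapdh had none. In the 95 members with every position listed in KO the share was 37.7% (33.7% to 41.8%), and in the other 103 it was 68.4% (64.4% to 72.1%).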

How the data were processed

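Native poly(A) RNA of 1 WT and 1 Mettl3 KO library was read by DRS. After basecalling and alignment to the mouse transcriptome with Minimap2, the authors ran 10 tools and deposited 17 lists of called RRACH positions on GRCm38. The deposited values are positions only. Nanom6A, Tombo, m6Anet, MINES, Epinano, ELIGOS and xPore have a list per library, and Nanocompore, DiffErr and DRUMMER have 1 list each from the comparison. The 3 comparison lists belong to both libraries. The authors kept positions with a minimum read number, so positions under it cannot be listed, and the read number itself is not given.

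The members and gene lists were chosen with earlier results of these data known. Comparison positions were joined by chromosome, start and strand and placed in same-strand exons of GENCODE M21 for GRCm38, while the authors used an earlier GENCODE release. All 3166 had RRACH on the placed transcript, and 2427 of 2429 listed transcript identifiers at them were in the annotation. Each gene was described on the transcript that holds most of its positions, with ties going to coding ones and then to the longest. Of the 198 member transcripts 197 had an annotated stop codon. Positions in exons of several genes (55) were assigned to the gene with most positions for the shares, and spacing counted them in each member. Shares have 95% Wilson intervals that cover counting error only. Two-sided Fisher exact tests, adjusted by Benjamini-Hochberg over 6 with a threshold of 0.05, compared positions of members with those of other genes. For KO listing and WT support no p-value is given, since they share reads with the rule. The script was tested on simulated data.

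Genes named are the 15 with most positions, 3 on each side of the threshold, the 5 with the closest 4 positions, up to 5 without and 5 with most KO listings, and members of the gene lists, some of which are not reported here. Further genes were named after their values were seen. Alternatives left out each comparison list, asked for 2 tools, joined positions within 5 bp, left out shared exons, kept protein-coding genes, or moved each limit. Another choice of transcript, and the removal of mitochondrial positions or of those by Nanocompore alone, were added after seeing the data. Python 3 with scipy, numpy, pysam and matplotlib was used.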

Additional observations from a re-analysis of the deposited data

Results flagged for a closer look

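The xPore lists entered none of the comparisons above. In the list of the WT library xPore held 500 of the 1096 member positions, 45.6% (95% Wilson interval 42.7% to 48.6%). In the list of the KO library it held 137, 12.5% (10.7% to 14.6%), so more member positions were listed in WT than in the control library. The xPore lists themselves differ in size, with 5368 positions in WT and 2393 in KO. In genes with 1 to 3 comparison positions the shares were 50.4% in WT and 14.3% in KO, so the same order was seen there and the listing is not particular to the members. xPore called sites from the same WT and KO reads as the tools that chose the members, and this contrast is a description without a test.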

How the results depend on the processing

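The number of genes with 4 or more positions stayed within 1.5 times of 198 under 6 of 11 alternatives. It was 77 without the Nanocompore list, 59 with positions listed by at least 2 of 3 comparison tools, 372 with at least 3 positions per gene and 112 with at least 5. Leaving out positions of Nanocompore alone, added after seeing the data, gave 77 again. The shares near the stop codon, with GGACT and in the last exon kept their direction and their side of the threshold under all of their 14, 12 and 13 alternatives. KO listing and WT support are given as descriptions. The difference in KO listing, 14.3 percentage points, kept its direction under 12 of 13 and was at most 14.5, and it was -0.0458 points with KO lists without Tombo and Nanom6A (26.2% in both groups). The difference in WT support, -6.52 points, kept its direction under all 13, from -13.2 with positions of at least 2 comparison tools to -2.91 with at least 5 of 6 tools in WT. The difference in long exons, -2.63 points, did not pass the test. It passed it with -4.57 points without the Nanocompore list, -3.12 without the DRUMMER list, -2.80 with positions within 5 bp joined, -3.19 with shared exons left out, -7.64 with at least 5 positions per gene and -4.25 with a limit of 200 nt. It also did so with -2.98 without mitochondrial positions and -4.57 without positions of Nanocompore alone, both added after seeing the data, and it turned to 0.0214 points with a limit of 1000 nt. With equal weight per gene this difference was 0.605 points. The causes were not tested. No paired analysis was possible because each condition has 1 library. The lists hold no read numbers, so the depth of a gene could not be set beside its number of positions.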

Other observations

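Gene families were counted by the start of the gene symbol, a choice made after the values were seen. The 14 members whose symbol starts with Rpl or Rps, which encode ribosomal proteins, held 78 positions. The 6 Slc members, which are solute carriers, held 38. Of these, Slc2a1 and Slc2a3 carry glucose, Slc16a1 and Slc16a3 carry lactate, Slc1a5 carries glutamine and Slc25a5 exchanges ADP and ATP across the inner mitochondrial membrane. The 3 mitochondrially encoded members, mt-Co1, mt-Co2 and mt-Atp6, held 24 positions. These are transcribed inside the mitochondrion, and no position of theirs was listed by 4 or more single-mode tools in WT.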
